A study of Mus musculus with 18 samples.

Results

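The 10 genes described here carry cholesterol out of cells, store it as ester, or encode the liver X receptors (LXR) that govern both. They were chosen by gene symbol: Abca1, Abcg1, Abcg5, Abcg8, Nr1h2, Nr1h3, Scarb1, Lcat, Soat1 and Soat2, all 10 found among the 54532 genes of the table. RNA-seq was performed on the livers of 18 male C57BL/6 mice (C57BL/6J by the study's methods), 6 in each of 3 groups, and each mouse gave 1 library. NC mice ate normal chow and received no SZ-A. HFD mice were fed a high-fat diet for 14 weeks before treatment and kept on it without SZ-A, and SZ-A mice were fed the same diet and then given SZ-A as well, the alkaloids of Ramulus Mori (mulberry twig), for 8 weeks by the sample labels and 6 weeks by the study's methods. The dose and route of the sequenced mice are not given in the sources used here, and all mice were fasted overnight before the livers were taken. The diet model is one of obesity with fatty liver. The mouse NC6 carries a diet label that goes against its title and was kept in NC. Leaving it out changed no call of a member, but ended that of the ratio of Abcg5 to Abcg8.

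Cholesterol that a liver cell takes up or makes can be excreted into bile, loaded onto high-density lipoprotein (HDL) or stored as ester. LXR are nuclear receptors that bind oxysterols, which are oxidised cholesterols, and with a retinoid X receptor partner they switch on genes of efflux. Abca1 passes cholesterol and phospholipid to lipid-poor apolipoprotein A-I, Abcg1 passes cholesterol to formed HDL and is known mostly from macrophages, and the Abcg5-Abcg8 pair excretes sterols from hepatocytes into bile. Scarb1 encodes the HDL receptor SR-BI, Lcat the plasma enzyme that esterifies HDL cholesterol, and Soat1 and Soat2 the enzymes that esterify cholesterol inside cells.

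Between 17163191 and 20493907 fragments lay on genes in each library, and the groups overlapped in this depth. Values are FPKM, fragments scaled to gene length and library size, and a gene was tested when its mean over the 18 mice reached 1 FPKM, which 10216 genes and 9 of the 10 members did. The exception was Soat1. Summed FPKM of 8 hepatocyte markers ran from 25893 to 50587 over the 18 libraries, so the labelled tissue was borne out by its markers. Summed over all genes, FPKM ran from 353946 to 424825 in HFD, lower than in NC (402436 to 489187) and SZ-A (400729 to 442892), with some overlap. Rescaling every mouse to a common sum therefore moved the median log2 fold change of all tested genes from -0.03 to 0.15 between HFD and NC and from 0.03 to -0.15 between SZ-A and HFD, and member changes below this size depend on the scale.

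In level per gene length, Lcat stood far above the other members, at 363 ± 37.6 FPKM in NC. It was 321 ± 39.3 FPKM in HFD and 364 ± 35.7 in SZ-A (mean ± SD, n = 6, as in all such values here). Nr1h3, which encodes the liver isoform LXRα, came second in every group. In NC it was followed by Scarb1 (24.9 ± 4.24 FPKM), Abcg8 (23.4 ± 4.48), Abcg5 (21.2 ± 4.63) and Abca1 (18.7 ± 2.22), whose ranges over mice overlapped from each to the next. Nr1h2, which encodes the widely expressed LXRβ, and Soat2 came lower, with ranges that overlapped each other in all 3 groups, and the upper one of them overlapped Abca1 in NC and SZ-A. Abcg1 and Soat1 were last in every group, and each was separated from its neighbour above in all mice. In HFD and SZ-A the order changed in its middle part, where the means of Abcg5 and Abcg8 stood above that of Scarb1 with overlapping ranges.

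**Figure D1:**
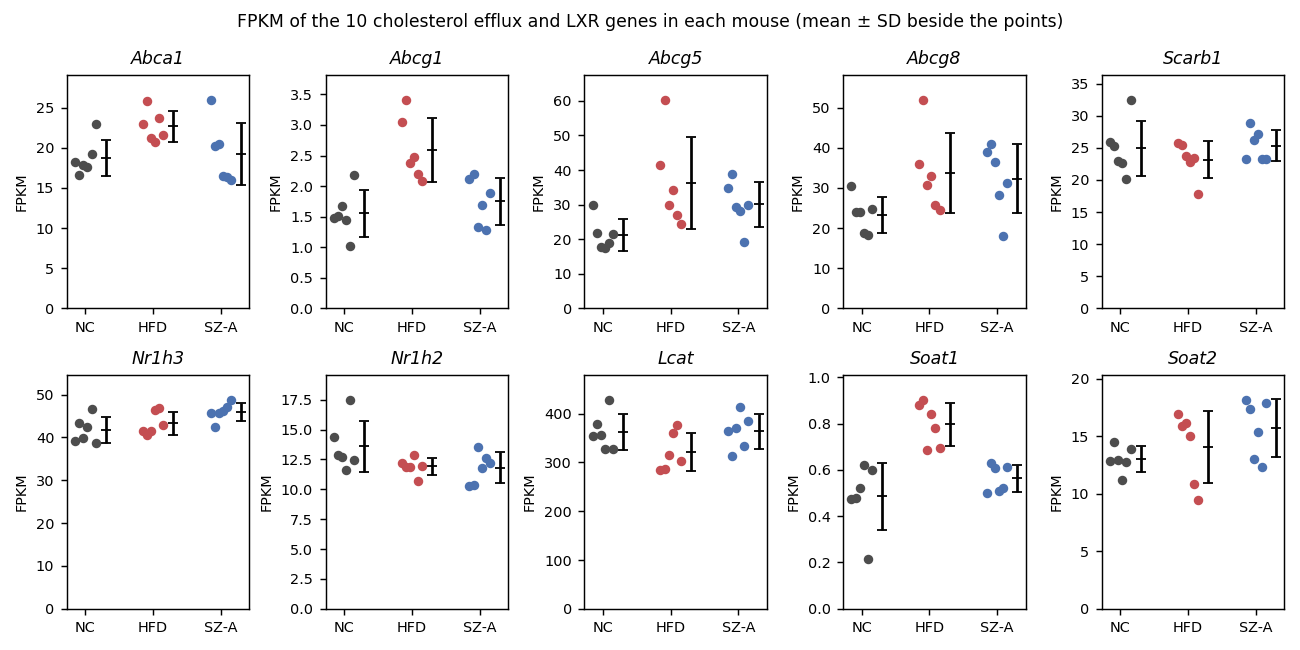
FPKM (y axis, from 0) of the 10 genes in each of 18 mice, by group on the x axis, with the mean and SD as a bar beside the points. Abcg1, Abcg5 and Soat1 sit highest in HFD, with no overlap between HFD and either other group for Soat1, while Nr1h3, Nr1h2 and Scarb1 overlap in all 3 groups.

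The first comparison asked which members differed on the high-fat diet. Abcg5, Abcg1 and Abca1 were higher in HFD than in NC, by 1.66-fold, 1.64-fold and 1.21-fold, and no member was lower. Thus 3 of the 9 tested members were called by limma (adjusted p under 0.05, and more than 1.2-fold apart), all 3 of them higher. Over all 10216 genes, 20.2% passed, 10.7% higher and 9.49% lower, so the background rate in the same direction was 10.7%. The groups did not overlap at 10.5% of all genes, while all 9 tested members overlapped. For Abca1 and Abcg1 this overlap came from NC6 alone, at 22.9 and 2.19 FPKM. The next highest NC mice had 19.3 and 1.67 FPKM, below the lowest HFD mice at 20.7 and 2.08. The share over all genes without NC6 was not counted. On the common-sum scale the 2434 called genes split into 2100 higher and 334 lower, against 1092 and 970 on the deposited scale, and Abcg8 joined the called members.

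Abca1 spanned 16.6 to 22.9 FPKM in NC (median 18.02) and 20.7 to 25.8 in HFD (median 22.3). All 6 HFD mice were above the NC mean, although NC6 reached into the HFD range and only 3 HFD mice exceeded the highest NC mouse. The log2 fold change was 0.28 (SE 0.09, 95% interval 0.09 to 0.46, adjusted p = 0.0376 by limma), just past the fold limit. The call was lost without any 1 of NC1, NC2, NC3, NC4, HFD1, HFD2 or HFD5, with adjusted p from 0.0629 to 0.0842. It was also lost with no filter on low values (adjusted p = 0.0595) and with all 18 mice in 1 fit (adjusted p = 0.0744). The gene lies on the minus strand of chr4:53030787-53159895 (GRCm38).

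The Abca1 promoter is shown because this gene is a textbook LXR target. RefSeq's window for it (GRCm38.p6, chr4:53159846-53160145, minus strand, ending 50 bases past the annotated start) was searched on both strands for the LXR motif, AGGTCA repeated in the same direction after 4 bases. Capitals mark the best match, 16 bases on the strand opposite to the gene, from -67 to -52 relative to the start, with 3 mismatches among the 12 motif bases.
Abca1: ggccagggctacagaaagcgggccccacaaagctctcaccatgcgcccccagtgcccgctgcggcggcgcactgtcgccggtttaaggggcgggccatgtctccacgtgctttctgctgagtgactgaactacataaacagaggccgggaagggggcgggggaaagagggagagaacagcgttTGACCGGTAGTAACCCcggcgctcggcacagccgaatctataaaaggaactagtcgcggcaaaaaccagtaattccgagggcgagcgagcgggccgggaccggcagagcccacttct
Of 32851 RefSeq promoter windows, 21.9% hold a match this close or closer and 0.0152% hold one without a mismatch, so the match is given as a description, and no binding was measured. Windows were listed for 7 of the 10 members, and none of their 9 windows held AGGTCA itself, which 16.3% of all windows do.

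Abcg1 spanned 1.02 to 2.19 FPKM in NC (median 1.496) and 2.08 to 3.41 in HFD (median 2.42). Of the 6 HFD mice, 5 were above the highest NC mouse, and only HFD6 fell within the NC range. Its log2 fold change was 0.72 (SE 0.17, 95% interval 0.36 to 1.08, adjusted p = 0.00876), and the call held without each mouse in turn. Between 67 and 319 fragments per library stand behind these values. The deposited gene (chr17:31057698-31115777, plus strand) has 4066 exonic bases where GENCODE vM21 has 7298, so its level depends on the gene model, and its fold change under the longer model was not tested.

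Abcg5 spanned 17.4 to 29.9 FPKM in NC (median 20.3) and 24.5 to 60.4 in HFD (median 32.1). HFD2 was the highest and 4 of 6 HFD mice exceeded NC1, the highest NC mouse, which itself stood apart from the other NC mice. The log2 fold change was 0.73 (SE 0.20, 95% interval 0.29 to 1.17, adjusted p = 0.0224), and the call was lost only without NC4 (adjusted p = 0.0502) among the fits that left out 1 mouse, and with no filter on low values (adjusted p = 0.0510). Abcg8, its partner in the transporter, spanned 18.3 to 30.5 FPKM in NC (median 24.0) and 24.5 to 52.0 in HFD (median 31.8). The same number of HFD mice, 4 of 6, exceeded the highest NC mouse, but at a log2 fold change of 0.50 (SE 0.18, 95% interval 0.12 to 0.88) the adjusted p was 0.0610, and Abcg8 was not called. It passed without NC1, HFD5 or HFD6 (adjusted p from 0.0392 to 0.0446).

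Abcg5 (minus strand, chr17:84658234-84683011) and Abcg8 (plus strand, chr17:84676302-84700333) are read in opposite directions from neighbouring starts, and the stretch between the starts is shown because both genes share it. RefSeq starts Abcg5 at 84683011. For Abcg8 it gives a start at 84683121, 110 bases away, and another at 84676302, inside Abcg5. The stretch shown uses the start at 84683121. The 209 bases of chr17:84682962-84683170 (GRCm38.p6, RefSeq, plus strand) run from within the first bases of Abcg5 to within those of Abcg8. Capitals mark AGATAA, the core letters known from GATA factor motifs, on either strand, 2 of the 3 matches lying between the starts.
Abcg5-Abcg8: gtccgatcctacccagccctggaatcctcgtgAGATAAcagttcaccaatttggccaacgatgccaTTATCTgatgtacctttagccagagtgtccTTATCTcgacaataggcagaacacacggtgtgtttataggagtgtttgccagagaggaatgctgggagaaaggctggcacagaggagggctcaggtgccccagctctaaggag
The letters were chosen after the stretch was read, and no binding was measured. Among the 32851 promoter windows of 300 bases, 11.2% hold at least 1 match and 0.107% hold at least 3. The gene annotations overlap over 6710 bases, because 1 of 3 Abcg8 transcripts starts inside Abcg5, but share only 82 exonic bases, 3.02% of those of Abcg5 and 2.19% of those of Abcg8. No strand marking is stated for the kit, so fragments there cannot be assigned to one gene.

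The ratio of Abcg5 to Abcg8 moved as well. Its geometric mean was 0.905 in NC, where it spanned 0.737 to 1.04, and 1.06 in HFD, where it spanned 0.974 to 1.16. SZ-A mice had a geometric mean of 0.942 and spanned 0.804 to 1.08, so the ranges of the 3 groups overlapped. The log2 difference between HFD and NC was 0.23 (two-sided exact permutation p = 0.0130, adjusted p over 3 comparisons = 0.0390). Between SZ-A and HFD it was -0.17 (exact p = 0.0411, adjusted p = 0.0617), and between SZ-A and NC it was 0.06 (exact p = 0.548). The HFD to NC difference missed the threshold without any 1 of 9 mice, NC2, NC3, NC4, NC6, HFD1, HFD2, HFD4, HFD5 and HFD6, with adjusted p of 0.0519 to 0.0844. The SZ-A to HFD difference reached it without HFD3 (adjusted p = 0.0390) or SZ-A5 (adjusted p = 0.0195).

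**Figure D2:**
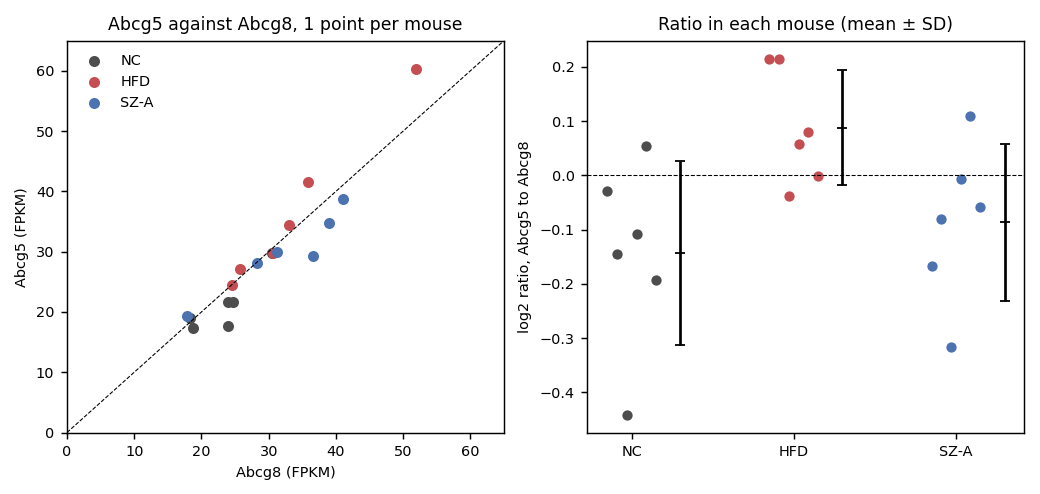
Left, Abcg5 against Abcg8 in FPKM, 1 point per mouse coloured by group, with the line of equal values dashed. Right, the log2 ratio of Abcg5 to Abcg8 in each mouse with the mean and SD of each group; HFD lies around 1.06 as a ratio and NC around 0.905, with overlapping points.

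The receptors and the remaining tested members did not pass. Nr1h3 spanned 38.6 to 46.7 FPKM in NC (median 41.1) and 40.6 to 47.0 in HFD (median 42.2), a log2 fold change of 0.05 with a 95% interval of -0.10 to 0.21. On the common-sum scale the value of Nr1h3 rose to 0.25, and the lowest adjusted p over the alternatives was 0.0109 by limma. It stayed under the 1.2-fold limit in all of them and was called in none. Nr1h2 was 13.6 ± 2.11 FPKM in NC and 11.9 ± 0.703 in HFD (log2 fold change -0.17, adjusted p = 0.207). Scarb1 had a log2 fold change of -0.10 (95% interval -0.35 to 0.16), and its highest NC value was 32.5 FPKM, in NC6. Lcat spanned 328 to 428 FPKM in NC (median 355) and 284 to 378 in HFD (median 309), and 4 HFD mice were below the lowest NC mouse, yet the log2 fold change of -0.18 had an adjusted p of 0.220. The values for Nr1h2, Scarb1 and Lcat change sign on the common-sum scale, to 0.02, 0.09 and 0.02. Soat2, the esterifying enzyme known from hepatocytes and enterocytes, split the HFD mice, since 4 of them were above the highest NC mouse and the other 2 below the lowest. Its HFD range of 9.42 to 16.9 FPKM therefore enclosed the NC range of 11.2 to 14.5, with a log2 fold change of 0.08 (95% interval -0.23 to 0.38).

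Soat1, the widely expressed esterifying enzyme that is abundant in macrophages, was the least expressed member, with 34 to 203 fragments per library. It spanned 0.214 to 0.620 FPKM in NC (median 0.501) and 0.686 to 0.902 in HFD (median 0.813). Every HFD mouse was above every NC mouse. The mean difference on the log2(FPKM + 0.1) scale was 0.66, with a two-sided exact permutation p of 0.00216, the smallest that 924 splits allow. The value is not adjusted over all genes, and in a limma fit of all genes without the filter the adjusted p was 0.0698.

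**Figure D3:**
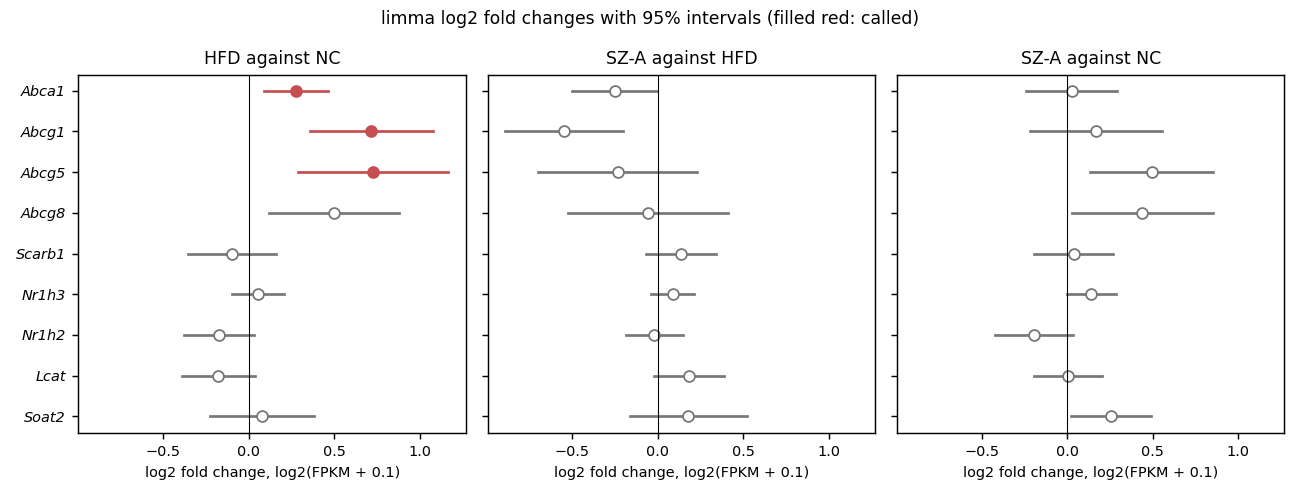
Log2 fold changes of the 9 tested members on the log2(FPKM + 0.1) scale (x axis) with 95% intervals, 1 panel per comparison; filled red points were called. Only Abca1, Abcg1 and Abcg5 in the HFD to NC panel are filled.

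The second comparison asked which members differed when SZ-A was given on top of the diet. None of the 9 tested members was called between SZ-A and HFD by limma, and none by voom on whole fragments. Of all 10216 genes, 0.147% were called, and the groups did not overlap at 1.28%. The study, which used DESeq2 at the same limits, reported many more genes between these groups. The absence of called members therefore holds for the fits used here only. At an unadjusted p under 0.05 there were 2 members, Abcg1 and Abca1, and 1515 of all genes. On the common-sum scale 10 genes were called higher and 206 lower, against 8 and 7 on the deposited scale, still with 0 members.

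Abcg1 spanned 1.28 to 2.19 FPKM in SZ-A (median 1.79), against 2.08 to 3.41 in HFD. All 6 SZ-A mice were below the HFD mean and 4 were below the lowest HFD mouse. The log2 fold change was -0.55 (SE 0.16, 95% interval -0.89 to -0.21), with an adjusted p of 0.147 that ranged from 0.0511 to 0.285 over the alternatives. Abca1 spanned 16.02 to 25.99 FPKM in SZ-A (median 18.4). Here 5 of 6 SZ-A mice were below the lowest HFD mouse, while SZ-A1 was above the highest HFD mouse, and the log2 fold change was -0.25 (95% interval -0.50 to -0.00399, adjusted p = 0.330).

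Neither gene of the biliary pair passed, and both intervals were wide. Abcg5 spanned 19.3 to 38.8 FPKM in SZ-A (median 29.7), a log2 fold change of -0.23 (95% interval -0.70 to 0.23). Abcg8 spanned 17.9 to 41.0 FPKM (median 33.9), a log2 fold change of -0.06 (95% interval -0.53 to 0.41) that turned positive without HFD2 or SZ-A5. SZ-A5 was the lowest SZ-A mouse for both genes. A decrease of the size of its own diet difference lies just outside the interval for Abcg5 (0.73 against a bound of -0.70) and within that for Abcg8 (0.50 against -0.53). The diet differences have intervals of their own (0.29 to 1.17 for Abcg5) and come from the same HFD mice. Whether the diet difference was fully reversed is therefore not settled by this.

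For the receptors, Nr1h3 was 46.0 ± 2.11 FPKM in SZ-A, a log2 fold change of 0.09 against HFD (95% interval -0.04 to 0.21), and Nr1h2 was 11.8 ± 1.30, at -0.02 (95% interval -0.19 to 0.15). All 6 SZ-A mice had more Scarb1 than the HFD mean, at a log2 fold change of 0.13 (95% interval -0.07 to 0.34). Lcat had a log2 fold change of 0.18 (95% interval -0.02 to 0.39) and Soat2 likewise of 0.18 (95% interval -0.17 to 0.52). On the common-sum scale the values of Nr1h3, Scarb1 and Soat2 were below 0.

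Soat1 was again the member whose groups did not overlap. It spanned 0.499 to 0.628 FPKM in SZ-A (median 0.565), below all 6 HFD mice. The log2 difference was -0.44 (exact permutation p = 0.00216, the smallest possible, not adjusted over all genes). In the limma fit without the filter the adjusted p was 0.250, and the gene was not called.

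The third comparison, SZ-A against NC, shares its mice with the other comparisons. Among the 9 tested members 0 were called by limma, against 9.6% of all genes. An unadjusted p under 0.05 was found at 2602 of all genes (25.5%) and at 3 members. These were Abcg5 (log2 fold change 0.49, 95% interval 0.14 to 0.85, adjusted p = 0.0790), Abcg8 (0.44, 95% interval 0.03 to 0.85, adjusted p = 0.170) and Soat2 (0.26, 95% interval 0.02 to 0.49, adjusted p = 0.157). For Abcg5, 3 SZ-A mice were above the highest NC mouse, and for Abcg8 and Soat2 there were 4. Without SZ-A5 both Abcg5 and Abcg8 passed (adjusted p = 0.0155 and 0.0185), and without NC1 Abcg5 did (adjusted p = 0.0352). Both were also called with sample weights and with the replicate number as a block. Abca1, at a log2 fold change of 0.03 (95% interval -0.24 to 0.29), and Abcg1, at 0.17 (95% interval -0.22 to 0.55), were not called, and Soat1 overlapped with NC (0.22, exact permutation p = 0.232).

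Macrophage markers moved with Abcg1 and Soat1 between groups. Over 11 monocyte and macrophage markers the summed FPKM of HFD mice was 119 to 175, above the 55.5 to 91.4 of all NC mice. Lyz2 alone averaged 56.3 FPKM in NC and 114 in HFD, so the sum mostly follows this gene. Cd9 was the only one of the 11 with a lower mean in HFD (5.81 FPKM) than in NC (7.21). SZ-A mice had 69.1 to 128, and 4 of the 11 markers reached the filter. Between HFD and NC, 3 of these 4 were higher (Cd68, Lyz2 and Mmp12, the last at 0.118 FPKM in NC and past the filter only through its 2.46 FPKM in HFD), and between SZ-A and HFD Cd68 was lower. Of 11 Kupffer cell markers 4 were higher in HFD (Adgre1, C1qa, C1qb and C1qc) and 7 were not called, among them Clec4f, Vsig4 and Timd4. Cd163 was the only one of the 11 with a lower mean in HFD (4.12 FPKM) than in NC (6.33). Sums over the 11 overlapped, with 233 to 405 FPKM for HFD, 165 to 269 for NC and 243 to 321 for SZ-A. Within groups, the highest NC sum of monocyte and macrophage markers and the highest NC Abcg1 were both in NC6. The lowest of both were in NC5, and the 2 highest of both in HFD came from HFD1 and HFD2. SZ-A5, however, had the highest SZ-A sum and the lowest SZ-A Abcg1. Adipocyte marker sums moved too, at 25.6 to 180 FPKM for HFD, 1.60 to 10.4 for NC and 2.62 to 47.6 for SZ-A. All 3 tested markers (Cfd, Cidea and Fabp4) were higher in HFD than in NC, although Cidea, at 0.738 FPKM in NC and 19.1 in HFD, was tested through its HFD level. Those under the filter were divided. Means were lower in HFD for Adipoq (0.202 FPKM in NC and 0.0913 in HFD), Plin1 (0.0742 and 0.0126) and Retn (0.0643 and 0.0318), and higher for Lep (0 and 0.0375). Of 9 stellate cell markers 5 were higher. Of 8 hepatocyte markers 4 were lower (Cps1, Ass1, Pck1 and Tat) and 4 were not called. Among the uncalled, Alb and Hnf4a had lower means in HFD. Ttr (3168 FPKM in NC and 3206 in HFD) and Cyp2e1 (4678 and 4921) had higher ones. The part of these cell types in the member and list differences was not tested, and in whole liver a change in the number of cells of one type cannot be told apart from a change in RNA per cell.

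**Figure D4:**
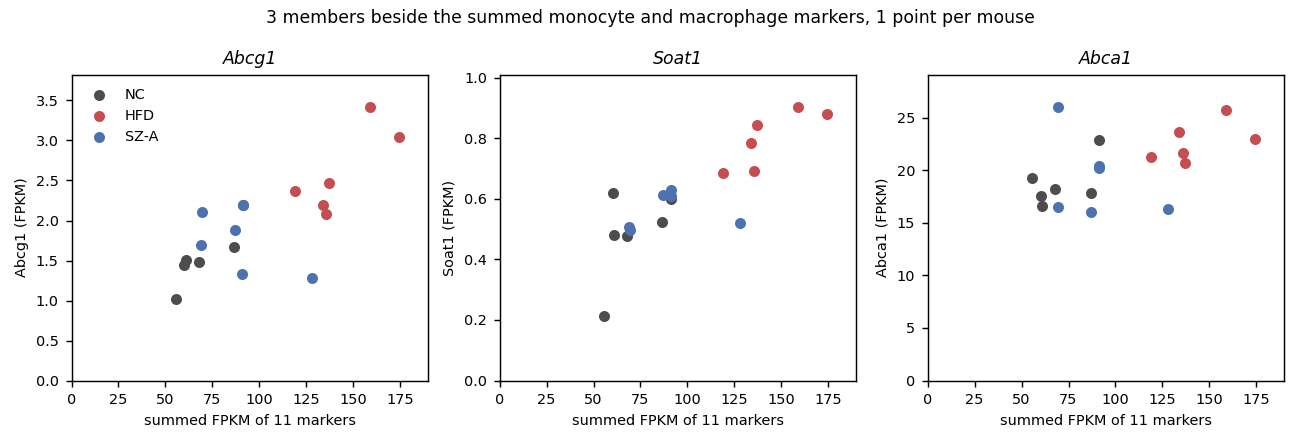
FPKM of Abcg1, Soat1 and Abca1 (y axes, from 0) against the summed FPKM of 11 monocyte and macrophage markers (x axis), 1 point per mouse coloured by group. Lyz2 makes up most of this sum. The HFD mice lie to the right, at 119 to 175, with the highest Soat1; NC5 lies lowest on the x axis, at 55.5, with the lowest Abcg1 and Soat1, and SZ-A5 lies at 128 with Abcg1 at 1.28 and Soat1 at 0.520.

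Members also varied together within groups. Group means were removed, and Pearson's r was computed over 18 mice for the 36 pairs of tested members, with mice permuted within groups. Of the 36 pairs, 10 passed an adjusted p under 0.05 (12 by Spearman's rho). The strongest was Abcg5 with Abcg8 (r = 0.928, rho = 0.907, permutation p = 1e-05 for both, the smallest that 100000 draws give, adjusted p = 0.00036), and r was 0.886 without HFD2 and SZ-A5. Nr1h3 varied with Lcat (r = 0.788, rho = 0.785, permutation p = 0.00051 and 0.00059, adjusted p = 0.00918 and 0.0106), and r was 0.66 without NC5 and HFD5, but on the common-sum scale r was 0.403 (adjusted p = 0.328) and the call was lost. Abcg1 varied with Abcg8 (r = 0.703, rho = 0.707, permutation p = 0.00165 and 0.00278, adjusted p = 0.0198 and 0.0176), and r was 0.747 without NC5 and NC6. Abcg1 ran against Nr1h3 (r = -0.651, rho = -0.618, permutation p = 0.00682 and 0.0101, adjusted p = 0.0324 and 0.0332), with r = -0.467 without NC5 and NC6. On the common-sum scale this relation was lost and its sign turned (r = 0.0551, adjusted p = 0.971). Of the 10 pairs, 7 also passed on the common-sum scale, where Abcg5 with Abcg8 had r = 0.944, and the 3 lost there were those of Nr1h3, with Lcat, Abcg1 and Abcg8. Abca1 was in none of the 10 pairs, but on the common-sum scale, where 13 passed, it passed with Abcg1 (r = 0.655), Abcg5 (r = 0.598) and Abcg8 (r = 0.68). All points share tissue composition, whose part was not tested.

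**Figure D5:**
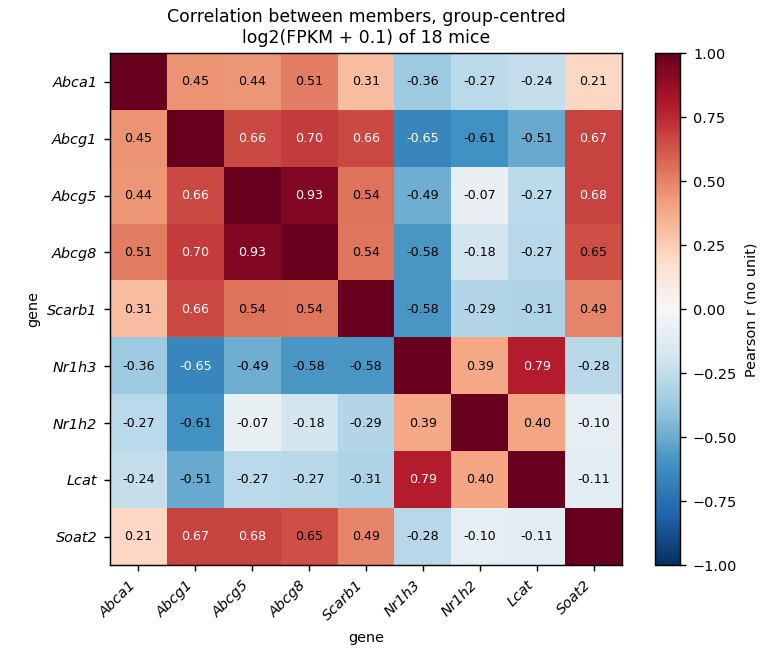
Pearson's r between the 9 tested members over 18 mice after removal of group means, from -1 (blue) to 1 (red). Abcg1, Abcg5, Abcg8, Scarb1 and Soat2 are positively related, and Nr1h3 runs with Lcat (r = 0.788) and against Abcg1 (r = -0.651), relations of Nr1h3 that were lost on the common-sum scale.

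Across all tested genes, those closest to each member by the same measure are given as a description over 18 mice, with no test. They were sought on the deposited scale only, and the common-sum scale, where the passing pairs of Nr1h3 were lost, was not searched. Slc44a1, a choline transporter, came next to the partner gene for both Abcg5 (r = 0.865) and Abcg8 (r = 0.899). Nr1h3 was closest to the mitochondrial genes Chchd2 (r = 0.935) and Timm17b (r = 0.916), and Lcat to Txn2 (r = 0.890) and F2 (r = 0.877), which encodes prothrombin. For Soat2 the closest was Klf1 (r = 0.903). Abcg1 was closest to Dag1 (r = 0.876) and Papln (r = 0.859), Abca1 to Ikbkb (r = 0.815) and Klhl6 (r = 0.775), Scarb1 to Cnp (r = 0.878) and Samhd1 (r = 0.849), and Nr1h2 to Mt1 (r = 0.867) and Pqbp1 (r = 0.867).

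Of 18 other LXR target genes tested between HFD and NC, 7 were higher and 1 lower, with a median log2 fold change of 0.20 beside -0.03 over all genes. Counts in this and the following lists stand beside the 10.7% of all genes called higher and 9.49% called lower. Lpl, which releases fatty acids from circulating triglyceride, was 1.37 ± 0.464 FPKM in NC and 3.57 ± 1.23 in HFD, with no overlap (adjusted p = 0.00170). Scd2, a fatty acid desaturase, was 0.747 ± 0.169 and 1.45 ± 0.346 (adjusted p = 0.00485). Apoc2, the cofactor of lipoprotein lipase, was the lower one, at 2.72 ± 0.704 and 0.919 ± 0.467 FPKM. Only 28 to 56 fragments per NC library and 7 to 25 per HFD library stand behind these Apoc2 values. The other higher genes, named after their values were seen, included Srebf1 and Mlxipl, regulators of lipid synthesis, Cyp7a1, the rate-limiting enzyme of bile acid synthesis, and Cd5l. Srebf1 was 6.96 ± 3.26 FPKM in NC and 20.9 ± 10.02 in HFD (adjusted p = 0.00752).

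Of 17 LXR partners and coregulators, Gps2, a subunit of a corepressor complex, was the 1 called, at 8.37 ± 0.387 FPKM in NC and 6.84 ± 0.483 in HFD (adjusted p = 0.00828). Among 5 oxysterol enzymes Cyp46a1, which makes 24-hydroxycholesterol, was higher, at 0.777 ± 0.195 and 1.83 ± 0.465 FPKM. Of 14 genes of HDL assembly 3 were lower and none higher. Apoa1, the acceptor of Abca1's cholesterol, was 8967 ± 2243 FPKM in NC and 4752 ± 898 in HFD (adjusted p = 0.00235), Apom was 192 ± 25.4 and 103 ± 11.9, and Bmp1 was 16.3 ± 0.993 and 12.5 ± 1.43. The list median was -0.14, smaller than the shift between scales given above. In the same livers the group mean of the Abca1 transcript was higher, just past the fold limit, and that of its acceptor was lower. The Abca1 call was lost in several alternatives, as given above, and the relation of the 2 genes per mouse was not tested.

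Among 18 genes of cholesterol trafficking and ester hydrolysis 3 were higher and 2 lower. Ces1g, a carboxylesterase, was 41.1 ± 13.2 FPKM in NC and 104 ± 28.5 in HFD, and Osbpl5, an oxysterol-binding protein relative, was 0.442 ± 0.135 and 1.62 ± 0.747. Cav1, of caveolae, was lower at 1.36 ± 0.289 and 0.710 ± 0.244 FPKM. Of 15 other ABC lipid transporters 4 were higher and 1 lower. Abcb4, which moves phosphatidylcholine into bile, was 70.8 ± 9.22 FPKM in NC and 46.3 ± 5.24 in HFD, below all NC mice (adjusted p = 0.00159), while Abcb1a was 0.372 ± 0.121 and 1.63 ± 0.795. Of 10 genes of sterol sensing and LDL uptake 1 was higher and 3 lower, namely Insig2 at 220 ± 137 and 71.5 ± 22.4 FPKM, Scap at 18.03 ± 1.18 and 13.5 ± 1.62, and Sqle at 2.13 ± 0.871 and 0.744 ± 0.302. Scd2, Cyp46a1, Osbpl5 and Abcb1a were under 1 FPKM in NC and Apoc2, Cav1 and Sqle in HFD, so these genes were tested through the groups in which they were higher.

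Between SZ-A and HFD, 1 gene of the 7 lists was called. Apom, which carries sphingosine-1-phosphate on HDL, was 174 ± 27.7 FPKM in SZ-A and 103 ± 11.9 in HFD (log2 fold change 0.74, SE 0.12, adjusted p = 0.0341), above all HFD mice. The call was lost without any 1 of the SZ-A mice 6, 4, 3 and 1 or the HFD mice 6, 4, 3, 2 and 1. Of the 14 HDL genes 12 had values above 0, with a list median of 0.19, about the size of the shift between scales. For sterol sensing and LDL uptake 9 of 10 values were above 0 and 6 had an unadjusted p under 0.05, with a median of 0.43 beside 0.03 over all genes, but none was called. Sqle, the squalene epoxidase of cholesterol synthesis, was 3.85 ± 4.29 FPKM in SZ-A, with a range of 1.06 to 12.2. The smallest p in the other lists belonged to Lpl (log2 fold change -1.10, adjusted p = 0.0865), Abca3 (-0.59, adjusted p = 0.0572), Stard5 (0.21, adjusted p = 0.230), Cyp7b1 (1.199, adjusted p = 0.243) and Gps2 (0.23, adjusted p = 0.287).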

How the data were processed

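The authors sequenced poly(A)-selected liver RNA of 18 mice, aligned reads to mm10 (GRCm38) and counted fragments per gene, with HISAT2 2.0.5 and featureCounts 1.5.0-p3 named in the submitters' processing notes. The deposited values are FPKM per gene, divided by the authors' library size factors. Worked back to fragments, 100% of values came out whole at a tolerance of 0.05.

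For each comparison log2(FPKM + 0.1) of its 2 groups was fitted with limma 3.58.1 (R 4.3.3, eBayes with trend) over genes with a mean of at least 1 FPKM, with Benjamini-Hochberg adjustment over all 10216. Called genes had adjusted p under 0.05 and differed by more than 1.2-fold. A fold change on this scale understates that of low genes. Soat1 and the Abcg5 to Abcg8 ratio were compared by two-sided exact permutation tests, and correlations by 100000 permutations (scipy 1.17.1). The script was tested on simulated data. Each mouse is 1 library, and no 2 libraries of the same group agreed within sampling noise. Pairs across groups were not compared.

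The members and lists were chosen with earlier results of these data known. All members were named. In each pathway list and in the HFD to NC and SZ-A to HFD comparisons, up to 3 called genes with the smallest adjusted p were named, or else the 1 with the smallest p, and for each member the 2 genes with the highest r. Some genes that this rule names are not reported here.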

Additional observations from a re-analysis of the deposited data

Results flagged for a closer look

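Of 30 groups of 6 mice checked for the 10 members, 3 held a mouse whose gap to the others, as a share of the group's range, was above Dixon's 95% critical value, and chance marks about 1 group in 20. Abcg5 was 29.85 FPKM in NC1, against 17.37 to 21.7 in the other NC mice. Scarb1 was 17.8 FPKM in HFD6, against 22.84 to 25.75 in the other HFD mice. Soat1 was 0.2144 FPKM in NC5, against 0.4762 to 0.6202 in the other NC mice.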

How the results depend on the processing

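The number of called members between HFD and NC was 3, and it was 1 (Abcg1) with no filter on low values, 0 with a fold change over 2 and 1 to 4 when single mice were left out. Between SZ-A and HFD it was 0 in every alternative run. Between SZ-A and NC it was 0, and 2 with sample weights, and 0 to 2 without single mice. The pathway lists, whose alternatives were chosen after seeing the data, held 27 called genes between HFD and NC, 10 with a fold change over 2 and 21 to 28 without single mice. Between SZ-A and HFD they held 1 called gene, 0 with no filter or a fold change over 2, 3 with a mean of at least 5 FPKM or with voom, 5 on the common-sum scale, 2 with all 18 mice in 1 fit, 6 with sample weights, and 0 to 3 without single mice. Between SZ-A and NC they held 10, 3 with no filter, 6 on the common-sum scale, 17 with sample weights, 4 with a fold change over 2, and 3 to 13 without single mice.

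With the replicate number as a block the members called were 2, 0 and 2 for HFD to NC, SZ-A to HFD and SZ-A to NC, Abca1 being the call lost for HFD to NC (adjusted p = 0.0883) and Abcg5 and Abcg8 those gained for SZ-A to NC, and the pathway lists held 0 for SZ-A to HFD. The mice were treated as unpaired because the numbers are not stated to pair them. Same-numbered mice deviated together with correlations of -0.117 to 0.292. In the same order of comparisons, 1, 2 and 6 of 12 mice correlated best with their own number among 6 candidates. The share was highest for SZ-A to NC, and whether same-numbered mice have something in common was not tested.

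Uncalled values turned in sign. On the common-sum scale the log2 fold changes from NC to HFD became 0.0159 for Lcat, 0.0946 for Scarb1 and 0.01642 for Nr1h2, and those from HFD to SZ-A -0.09153 for Nr1h3, -0.04269 for Scarb1 and -0.0003189 for Soat2; the lower FPKM sums of HFD set this scale. From HFD to SZ-A, Abcg8 (-0.1411 to 0.1002 without single mice) was 0.07546 without HFD2 and 0.1002 without SZ-A5, and Nr1h2 (-0.06206 to 0.01775) was 0.0001463 with sample weights and 0.002064, 0.01775 and 0.01563 without HFD4, SZ-A1 and SZ-A2. From NC to SZ-A, Lcat (highest 0.05439) was -0.02216, -0.02257, -0.002064, -0.03316 and -0.01259 without NC4, NC6, SZ-A3, SZ-A4 and SZ-A6, Scarb1 (highest 0.1174) was -0.01918 and -0.0006496 without NC5 and SZ-A2, and Abca1 (highest 0.08461) was -0.007976 and -0.06533 without NC2 and SZ-A1. The log2 ratio of Abcg5 to Abcg8 ran from 0.1721 to 0.2711 (HFD to NC), -0.2136 to -0.1285 (SZ-A to HFD) and -0.002262 to 0.1031 (SZ-A to NC) without single mice. The number of passing correlations was 10 with either other pseudocount and 13 on the common-sum scale, where 7 of the 10 were kept, the 3 pairs of Nr1h3 were lost and 6 pairs of Abca1 or Scarb1 entered. Except where named, the cause was not tested.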
